A study of Rattus norvegicus with 12 samples.

Results

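The data described here come from GS cells grown in a cardiomyocyte medium called CMM, compared with undifferentiated GS cells. GS cells are an immortalized line made from rat cardiac fibroblasts, the connective tissue cells of the heart, by viral overexpression of the transcription factors Sall4 and Gata4. The comparison takes 6 of the 12 RNA-seq libraries of the series, chosen by their labels: 3 libraries of untreated GS cells (GS) and 3 of GS cells in CMM (GS_diff1). The other 2 groups, with 3 libraries each, are the parental wild type cardiac fibroblasts (RCF), labelled untreated, and GS cells given CMM together with EGM2, a condition labelled as cardiomyocyte and endothelial differentiation (GS_diff2). All of GS, GS_diff1 and GS_diff2 carry both viral factors, so neither medium is shown without them. The protocol field names the viral treatment for RCF too, whereas the RCF labels call those cells wild type. The labels call the cells both primarily cultured and immortalized, they give neither strain, sex nor age of the rats, and neither the composition of CMM nor the days in it is given by the labels. The design text speaks of biological replicates, but the labels do not say whether the 3 libraries of a group came from separate cell derivations, so the p-values measure the spread between these libraries. GS and GS_diff1 differ in medium, and any difference in density, passage or time in culture between them cannot be told apart from it.

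Cardiac fibroblasts make the collagens, proteoglycans and proteases of the heart's matrix, and under mechanical load or TGF-beta they become myofibroblasts that carry smooth muscle actin fibres. Sall4 is a zinc finger factor of early embryonic and stem cells, and Gata4 is a zinc finger factor that drives heart muscle genes. A cardiomyocyte is known by its sarcomere proteins, its calcium handling proteins and its ion channels, so these 3 sets are read below beside the smooth muscle set, the fibroblast set and the pathways that respond to a change of medium.

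Each library held between 16255682 and 22763665 counted reads in GS and between 17241662 and 21061899 in GS_diff1. Of 32545 genes in the table, 14399 had enough reads to be tested. Levels are given as counts per 1000000 counted reads (CPM), scaled by edgeR's TMM factors, and log2 fold changes are GS_diff1 over GS with their standard error (SE). The verbs rose and fell are used of genes whose edgeR quasi-likelihood test, adjusted by Benjamini and Hochberg over all 14399 genes, gave p under 0.05. The common biological coefficient of variation was 9.72%, so small differences passed the test. Reads of the mitochondrial genome made up 0.242% to 0.246% of a GS library and 1.49% to 1.70% of a GS_diff1 library, against 1.79% to 1.86% in GS_diff2 and 2.18% to 2.26% in RCF. The part of that gap in the results below was not tested. These are bulk samples, so fewer cells of a type and less RNA per cell cannot be told apart.

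In CMM 9256 of the 14399 genes changed (64.3%), 4603 of them up (32.0%) and 4653 down (32.3%). A change of at least 2-fold was found for 2616 genes (18.2%), of which 1207 rose (8.38%) and 1409 fell (9.79%). At 4-fold or more 334 genes rose and 403 fell. The median log2 fold change over all tested genes was -0.0024, and the median size over the genes called was 0.62. Counts of list members below are to be read against 32.0% and 32.3%. The genes that rose farthest were a mixture of the interleukin-33 receptor, a nuclear receptor of liver and gut, smooth muscle actin and a sterol enzyme, and those that fell farthest included a secreted Wnt antagonist, a fibroblast growth factor and a potassium channel subunit.

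The 2 viral factors were read first. Sall4 gave 246, 255 and 238 CPM in GS and 224, 222 and 231 CPM in GS_diff1, a log2 fold change of -0.13 ± 0.038 (SE; edgeR adjusted p = 0.0052), and no read in the RCF libraries. All 3 GS_diff1 libraries were lower than all 3 GS libraries, but the step was small, and it missed the threshold when library totals replaced the TMM factors (log2 fold change -0.065, edgeR adjusted p = 0.14) and without GS replicate 2 (log2 fold change -0.093, edgeR adjusted p = 0.054). Gata4 gave 603, 589 and 594 CPM in GS and 487, 498 and 500.2 CPM in GS_diff1 (log2 fold change -0.27 ± 0.028, edgeR adjusted p = 1.40e-09), against a mean of 206 CPM in RCF. In CMM both factors were above the parental level in every library. Reads of the viral copies and of the rat genes cannot be separated in the gene counts. In GS_diff2 the means were lower, 69.6 CPM for Sall4 and 285 CPM for Gata4.

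The cell division genes rose almost without exception. Of 40 tested genes for licensing replication origins and copying DNA, 39 rose and 1 fell, with a median log2 fold change of 1.39. All 37 tested genes of mitosis and the spindle rose, with a median of 1.63. The summed level of the replication list ran from 1064 to 1079 CPM in GS and from 2701 to 2721 CPM in GS_diff1. The summed level of the mitosis list ran from 1256 to 1276 CPM in GS and from 3479.9 to 3649.5 CPM in GS_diff1, against 1310.0 to 1318 CPM in RCF. Both lists thus stood above the undifferentiated cells and above the parental fibroblasts in every library.

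Among replication genes Tk1, which makes thymidine phosphate for DNA synthesis, gave 29.7, 31.7 and 32.3 CPM in GS and 164, 172 and 169 CPM in GS_diff1 (log2 fold change 2.43 ± 0.046, edgeR adjusted p = 1.21e-27). The GS_diff1 libraries were all about equally high and did not overlap GS. Chaf1a and Chaf1b, subunits that place histones behind the fork, rose by 1.89 and 1.83 on the log2 scale, and Pole2, a subunit of the leading strand polymerase, rose by 1.88. Mcm2, a subunit of the helicase, went from 73.1, 67.5 and 65.3 to 187, 189 and 187 CPM. The member that fell was Gins2, a helicase cofactor, at 17.9, 18.5 and 17.7 CPM in GS and 12.2, 15.5 and 15.9 CPM in GS_diff1, a call lost without GS_diff1 replicate 1.

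Among mitotic genes Cenpa, the histone that marks the centromere, gave 4.91, 3.01 and 3.41 CPM in GS and 23.4, 27.1 and 23.2 CPM in GS_diff1 (log2 fold change 2.68 ± 0.14, edgeR adjusted p = 5.41e-15). Birc5 and Aurkb, partners in the complex that corrects chromosome attachment, rose by 2.19 and 2.11 on the log2 scale. Kif23, a motor of the final cell cleavage, gave 27.9, 22.6 and 28.01 CPM in GS and 143, 144 and 131 CPM in GS_diff1. Cdk1, the kinase that starts mitosis, gave 38.6, 43.4 and 41.8 CPM in GS and 119, 132 and 132 CPM in GS_diff1, and Mki67, the antigen used to stain cycling cells, gave 64.2, 68.3 and 61.7 CPM in GS and 207, 184 and 176 CPM in GS_diff1. In each of these genes every GS_diff1 library was above every GS library.

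Genes that set entry into the cycle moved both ways. Of 24 tested G1 cyclins, E2F factors and kinase inhibitors, 8 rose and 10 fell. The E-type cyclins rose, Ccne1 from 18.95, 18.1 and 19.1 to 46.4, 51.9 and 46.4 CPM and Ccne2 from 10.4, 10.9 and 13.1 to 34.8, 29.7 and 33.8 CPM, and so did the late repressor E2f7, by 1.84 on the log2 scale. The D-type cyclins fell: Ccnd1 gave 616, 588 and 613 CPM in GS and 377, 377 and 377 CPM in GS_diff1, and Ccnd2 and Ccnd3 had log2 fold changes of -0.39 and -0.21. The kinase inhibitors Cdkn1b, Cdkn1c and Cdkn2b fell, with log2 fold changes of -0.88, -0.65 and -0.62, and Cdkn1a was not called, at 216, 206 and 211 CPM in GS and 200.3, 215 and 214 CPM in GS_diff1. Myc, a growth factor response gene, fell from 144, 140.0 and 148 to 55.8, 50.4 and 51.2 CPM. Ccnd1 differed between the 2 media: its mean in GS_diff2 was 2867 CPM (log2 fold change over GS_diff1 2.93 ± 0.027, edgeR adjusted p = 1.47e-35).

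Because the mitotic and the replication genes rose together, their promoters were searched for the short sites known to time them. Promoters are from RefSeq (GRCr8), 250 bases before to 50 bases after each gene's start, matched by symbol, and both strands were searched. The cell cycle homology region, TTTGAA, was in 24 of 32 matched mitotic promoters (75%) and in 3 of 34 replication promoters (8.82%), against 18.3% of all 33469 promoters. The E2F core GCGGGAAA was in 5 of 34 replication promoters (14.7%) and 0 of 32 mitotic ones, against 0.974% of all. A match describes the letters and shows no binding. The 200 bases before the start are printed for 3 mitotic genes of the list, 5′ to 3′ in the gene's direction, with TTTGAA in capitals, to show how near the start the site lies. The site's first base is 116 bases before the start in Cenpa, 72 and 16 before it in Cdk1 and 8 before it in Birc5.
Cenpa (chr6:31431553-31431752, minus strand): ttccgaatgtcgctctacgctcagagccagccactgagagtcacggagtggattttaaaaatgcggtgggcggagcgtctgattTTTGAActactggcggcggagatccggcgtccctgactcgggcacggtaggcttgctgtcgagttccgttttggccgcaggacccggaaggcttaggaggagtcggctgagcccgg
Cdk1 (chr20:19265093-19265292, plus strand): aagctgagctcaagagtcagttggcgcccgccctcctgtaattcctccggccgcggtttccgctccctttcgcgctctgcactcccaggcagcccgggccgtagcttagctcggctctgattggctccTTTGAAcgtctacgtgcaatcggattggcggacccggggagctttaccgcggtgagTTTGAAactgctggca
Birc5 (chr10:103571946-103572145, plus strand): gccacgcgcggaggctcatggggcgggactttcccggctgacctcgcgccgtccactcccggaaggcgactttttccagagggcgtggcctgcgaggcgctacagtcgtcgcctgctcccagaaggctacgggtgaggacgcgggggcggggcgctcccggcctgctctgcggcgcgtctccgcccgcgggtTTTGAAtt

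All 20 tested enzymes of cholesterol synthesis rose, with a median log2 fold change of 1.38. Their summed level ran from 556 to 561 CPM in GS, from 1672 to 1707 CPM in GS_diff1, from 2919 to 2953 CPM in GS_diff2 and from 1495 to 1504 CPM in RCF. The GS libraries were thus the lowest of the 4 groups, and GS_diff1 lay a little above the parental fibroblasts. As background, cells in general switch this pathway on through the factor SREBP2 when their membranes hold little sterol.

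Following the pathway from its start, Acat2, which joins the first acetyl units, gave 7.89, 6.07 and 8.95 CPM in GS and 32.9, 40.99 and 37.8 CPM in GS_diff1. Hmgcs1, the next enzyme, gave 49.4, 46.2 and 49.3 CPM in GS and 240.0, 224 and 226 CPM in GS_diff1. In both every GS_diff1 library was above every GS library. Idi1, which isomerises the 5-carbon unit, moved most: 7.07, 7.23 and 6.12 CPM in GS and 81.7, 76.5 and 75.5 CPM in GS_diff1, a 11.4-fold rise (log2 fold change 3.51 ± 0.069, edgeR adjusted p = 3.19e-27). Mvd, 1 step before it, rose by 1.99 on the log2 scale. Of the later enzymes, Sqle, the squalene epoxidase, rose by 1.32 and Cyp51 by 1.86. The smallest steps were at Ebp, 0.24 ± 0.094, and Mvk, 0.26 ± 0.096. Ebp missed the threshold without GS replicate 1 and without GS_diff1 replicate 1 or 2, and Mvk without GS_diff1 replicate 1, so 20 is the count with all libraries.

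**Figure D1:**
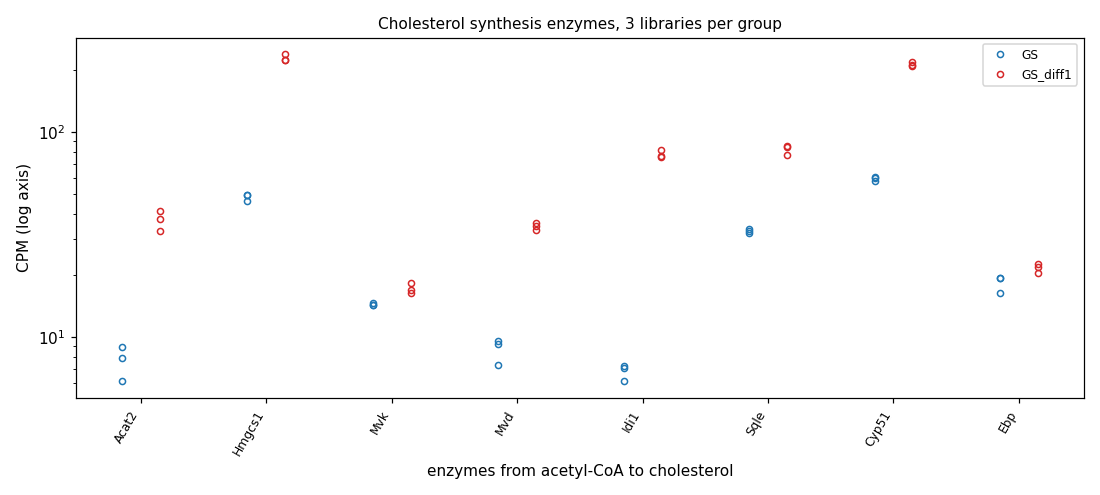
CPM on a log axis (vertical) of the 8 cholesterol synthesis enzymes described here, in pathway order (horizontal), with 1 circle per library, blue for GS and red for GS_diff1. The red circles are higher at each enzyme, from a narrow step at Ebp to the widest at Idi1.

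Of 16 genes that sense, take up or export sterol, 6 rose and 8 fell. Srebf2, which encodes SREBP2, gave 97.6, 96.04 and 93.8 CPM in GS and 193, 199 and 198 CPM in GS_diff1 (log2 fold change 1.03 ± 0.037, edgeR adjusted p = 7.96e-21), with no overlap, and its retention factor Insig1 rose by 1.49 on the log2 scale. Stard4, a cholesterol carrier, rose by 1.91. On the other side, Abca1, the export pump, gave 101, 118 and 100.2 CPM in GS and 40.7, 40.2 and 46.1 CPM in GS_diff1, and Mylip, a ubiquitin ligase of sterol control, fell from 33.2, 27.8 and 27.6 to 4.47, 7.56 and 5.62 CPM. Srebf1, the related factor of fatty acid genes, was not called, at 94.98, 95.2 and 99.7 and 90.6, 101 and 101 CPM. Of 12 fatty acid synthesis genes 8 rose and 1 fell (2 without GS_diff1 replicate 1), Fasn from 217, 221 and 195 to 484, 487 and 499.8 CPM and Acly, which supplies acetyl-CoA, by 1.30 on the log2 scale.

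The CCAAT box, which is bound by NF-Y beside SREBP2 in sterol genes, was found in 12 of 15 matched cholesterol promoters (80%) and in 24 of 32 mitotic promoters (75%), against 37.5% of all. CCAAT and TTTGAA were both present in 20 of the 32 mitotic promoters, and in 1 of those the sites shared bases. The sterol element core TCACNCCAC was in 0 of the 15 cholesterol promoters and in 1.12% of all, which says only that these letters are not in these windows. The 200 bases before the start of 3 of the steepest enzymes are shown with the box in capitals, read here as ATTGG on the other strand. It begins 66 and 35 bases before the start in Idi1, 188 and 133 before it in Hmgcs1 and 35 before it in Mvd, where a CCAAT on the gene's own strand also begins 2 bases before the start and runs past the printed stretch.
Idi1 (chr17:66547525-66547724, minus strand): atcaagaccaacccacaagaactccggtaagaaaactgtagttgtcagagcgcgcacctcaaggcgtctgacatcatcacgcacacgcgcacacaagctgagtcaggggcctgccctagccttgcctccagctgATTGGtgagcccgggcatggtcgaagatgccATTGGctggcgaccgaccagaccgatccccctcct
Hmgcs1 (chr2:53382104-53382303, plus strand): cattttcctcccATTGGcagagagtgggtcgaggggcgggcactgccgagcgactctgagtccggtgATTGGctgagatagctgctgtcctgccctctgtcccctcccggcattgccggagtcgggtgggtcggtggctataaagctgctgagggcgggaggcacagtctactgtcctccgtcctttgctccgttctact
Mvd (chr19:67414975-67415174, minus strand): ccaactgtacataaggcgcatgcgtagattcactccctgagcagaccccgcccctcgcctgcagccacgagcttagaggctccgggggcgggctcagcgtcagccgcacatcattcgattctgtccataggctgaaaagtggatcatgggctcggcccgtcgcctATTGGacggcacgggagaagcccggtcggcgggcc

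Most contractile genes of the smooth muscle list, many of them also made by myofibroblasts, were higher. Of 22 tested smooth muscle genes 17 rose and 5 fell, with a median log2 fold change of 0.87, and their summed level ran from 4462 to 4559 CPM in GS, from 9796 to 9875 CPM in GS_diff1, from 4345 to 4379.7 CPM in GS_diff2 and from 5676 to 5706 CPM in RCF. GS_diff1 was the highest of the 4 groups. Acta2 (chr1:252537615-252550394, minus strand, as deposited), the actin of smooth muscle, gave 87.8, 83.9 and 93.5 CPM in GS and 964, 973 and 946 CPM in GS_diff1, a 10.9-fold rise (log2 fold change 3.44 ± 0.045, edgeR adjusted p = 6.47e-27). The 3 libraries of each group lay close together and far apart from the other group. In GS_diff2 Acta2 gave 8.40, 10.9 and 10.2 CPM, 97.1-fold below GS_diff1 (edgeR adjusted p = 1.34e-30), and in RCF 195, 202 and 197 CPM.

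Tagln, an actin binding protein of smooth muscle, gave 315, 304 and 321 CPM in GS and 1094, 1126 and 1101 CPM in GS_diff1. Actn1 and Tpm1, which cross-link and cover actin filaments, rose by 1.59 and 1.58 on the log2 scale, and Cald1, a calmodulin-regulated actin protein, by 1.26. Cnn1, a late marker of smooth muscle, rose from 6.61, 6.65 and 5.79 to 14.8, 12.2 and 16.5 CPM, and Myh11, its heavy chain, from 1.70, 2.20 and 1.67 to 2.28, 4.74 and 3.13 CPM, a call lost without GS_diff1 replicate 2. Myocd, the cofactor that switches on smooth muscle genes, gave 3.26, 4.92 and 3.03 CPM in GS and 10.7, 10.99 and 9.68 CPM in GS_diff1, while the serum-sensitive cofactor Mrtfa (listed as Mkl1) fell by 1.19-fold. The 5 that fell were Mylk, Synpo2, Synm, Itga8 and Mrtfa. The CArG box, the site of Srf, was found by its consensus in 2 of 17 matched promoters of this list (11.8%), Cnn2 and Srf, against 1.64% of all.

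Of 23 tested cardiac sarcomere and natriuretic genes 15 rose and 2 fell, with a median log2 fold change of 1.55, and 9 more were too low to test. The summed level of the list ran from 744 to 759 CPM in GS and from 1761 to 1809 CPM in GS_diff1. It ran from 803 to 817 CPM in GS_diff2 and from 1855 to 1890 CPM in RCF. A large part of the rise in the sum was Tpm1, also in the smooth muscle list, with means of 317 CPM in GS and 947 CPM in GS_diff1. Tnnc1, the calcium sensor of slow and cardiac muscle, gave 24.6, 26.1 and 28.01 CPM in GS and 107, 119 and 112 CPM in GS_diff1, and Mybpc3, which binds cardiac myosin, gave 19.8, 14.5 and 13.97 CPM in GS and 92.3, 98.5 and 96.1 CPM in GS_diff1. Both gaps were wide, with edgeR adjusted p = 1.39e-21 and 2.43e-11. In RCF Mybpc3 had no reads and Tnnc1 a mean of 0.319 CPM. Tnnt2, the cardiac troponin T, rose from 1.93, 2.02 and 1.93 to 6.61, 7.46 and 8.93 CPM, below its mean of 15.1 CPM in RCF and of 34.1 CPM in GS_diff2. Tnni1, the troponin I of slow muscle, rose from 0.642, 0.579 and 0.386 to 9.13, 7.56 and 9.74 CPM, and Ttn, the spring of the sarcomere, from 17.2, 21.9 and 25.05 to 53.2, 71.4 and 70.2 CPM.

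Several other genes of the list, among them markers of mature cardiomyocytes, were low or without reads in both groups, though Actc1 and Actn2 rose. Myh7, the ventricular myosin, had 0, 0 and 0 CPM in GS and 0.285, 0.303 and 0.116 CPM in GS_diff1, Myh6 had 0.551, 0.405 and 0.129 and 0.571, 1.01 and 0.696 CPM and was not called, and Myl2 and Tcap had no read in any of the 12 libraries. Nppa, the atrial hormone, reached at most 0.0579 CPM in these 6 libraries. Actc1, the cardiac actin, passed the test but only from 0.184, 0 and 0 to 2.33, 1.31 and 1.62 CPM, and Actn2, the Z-disc actinin, from 0.413, 0.231 and 0.579 to 1.47, 1.46 and 1.51 CPM. Nppb was not called, at 16.01, 16.9 and 17.1 and 16.2, 16.8 and 13.97 CPM. Des, the muscle intermediate filament, was among the 2 members that fell and did not exceed 0.551 CPM.

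Calcium handling genes and ion channels did not move one way, with 5 of 18 tested rising and 5 falling and 10 too low to test. Atp2a2, the calcium pump of the sarcoplasmic reticulum, gave 575, 601 and 585 CPM in GS and 742, 719 and 717 CPM in GS_diff1, a small rise of 0.31 ± 0.029 on the log2 scale. Its inhibitor Pln rose from 1.33, 1.39 and 1.42 to 4.47, 5.75 and 4.29 CPM. Hcn4, the pacemaker channel, fell from 9.73, 9.26 and 9.85 to 0.713, 0.706 and 0.58 CPM, and Cacna1g, a T-type calcium channel, from 54.8, 50.9 and 49.4 to 26.2, 22.4 and 23.4 CPM. Gja1, the main gap junction protein of the ventricle, fell by 1.23-fold. Ryr2, the calcium release channel, was under 0.5 CPM in all 6 libraries.

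Cardiac transcription factors mostly fell or were not called: of 20 tested, 2 rose and 10 fell, with a median log2 fold change of -0.29. Mef2a, a factor of muscle gene activation, moved most among those above 5 CPM, from 138, 144 and 130.4 to 55.1, 57.3 and 60.3 CPM (log2 fold change -1.26 ± 0.045, edgeR adjusted p = 1.39e-20). Hand1 and Irx3, factors of the early chambers, had log2 fold changes of -0.85 and -1.13, and Gata6, the relative of Gata4, had one of -0.11, which missed the threshold with library totals and without GS_diff1 replicate 2. Prdm16 also fell, by 1.53-fold, a call that was lost without GS_diff1 replicate 2. Nkx2-5, Tbx20, Isl1 and Mef2c were not called, though Mef2c was called lower without GS_diff1 replicate 2. Nkx2-5 gave 3.30, 3.82 and 3.03 CPM in GS and 2.57, 3.53 and 2.03 CPM in GS_diff1, which overlap. The 2 that rose were Smarcd3, a chromatin subunit of the heart, by 0.56 on the log2 scale and Tbx3 by 0.28, the latter not without GS replicate 1.

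**Figure D2:**
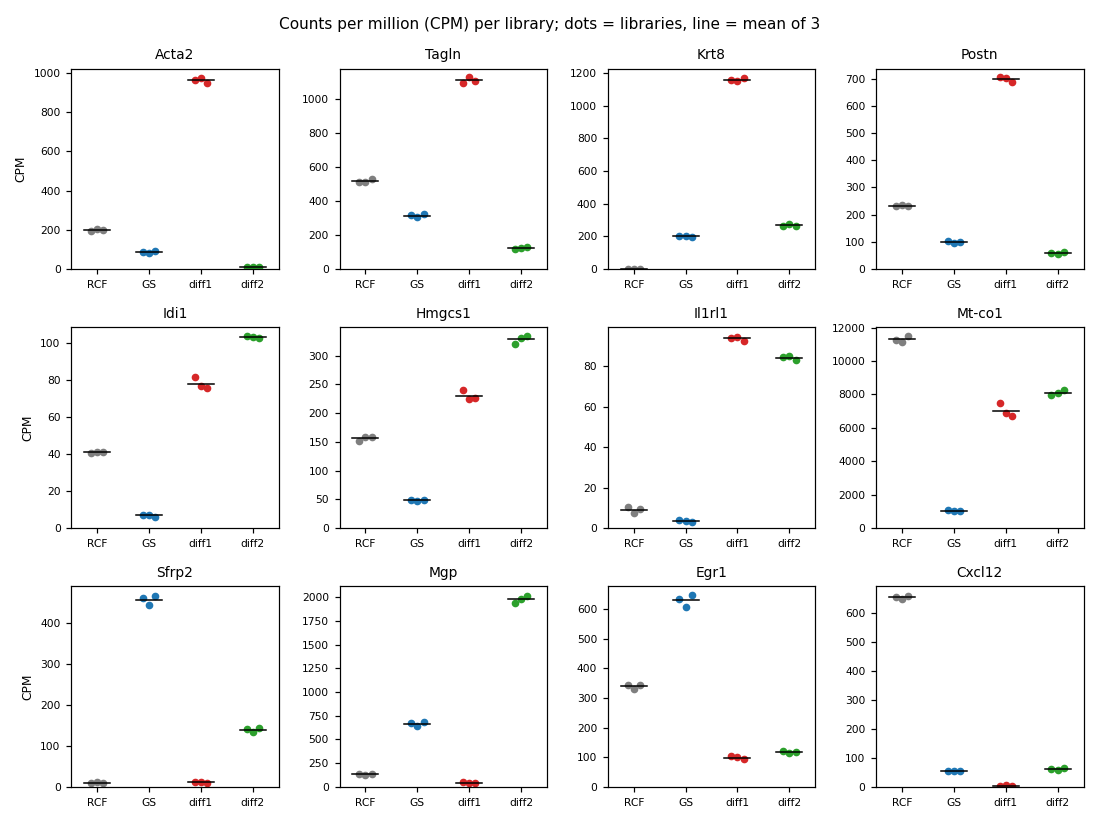
CPM (vertical axis, from 0) of 12 genes in each library of RCF, GS, GS_diff1 (diff1) and GS_diff2 (diff2), with a dot per library and a line at the mean of 3. Acta2, Tagln, Krt8 and Postn are highest in GS_diff1, Idi1, Hmgcs1, Il1rl1 and Mt-co1 are higher in GS_diff1 than in GS, and Sfrp2, Mgp, Egr1 and Cxcl12 are lower.

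Pericyte genes were mostly lower in CMM, and fibroblast identity genes moved both ways, more of them down. Of 9 tested pericyte genes 7 fell and 1 rose (2 without GS_diff1 replicate 2), with a median log2 fold change of -1.58. Pdgfrb, the receptor that defines mural cells and activated fibroblasts, gave 1101, 1085 and 1105 CPM in GS and 206, 207 and 210.4 CPM in GS_diff1 (log2 fold change -2.40 ± 0.029, edgeR adjusted p = 2.74e-32). Abcc9, a subunit of the ATP-sensitive potassium channel, gave 17.6, 17.6 and 22.7 CPM in GS and 0.38, 0.504 and 0.927 CPM in GS_diff1, and its pore partner Kcnj8 fell from 2.16, 1.56 and 1.87 to 0.19, 0.05 and 0.232 CPM. In GS_diff2 the same 2 subunits stood at means of 73.4 and 15.4 CPM, the first 124-fold above GS_diff1 (edgeR adjusted p = 6.34e-24). Pdgfrb went the other way, at a mean of 91.4 CPM in GS_diff2, 2.27-fold below GS_diff1. Of the 9 tested pericyte genes 6 were higher in GS_diff2 than in GS_diff1 and 3 were lower. Of 16 fibroblast identity genes 10 fell and 5 rose. Their list's summed level changed little, from 6915 to 7088 CPM in GS and from 6446 to 6534 CPM in GS_diff1. In RCF it ran from 6579 to 6667 CPM. The genes described next are among those that fell. Islr, a secreted stromal protein, fell from 109.6, 99.05 and 108 to 19.7, 19.97 and 18.4 CPM, Twist1 and Prrx1, factors of mesenchyme, had log2 fold changes of -1.09 and -0.84, and Pdgfra gave 679, 723 and 661 CPM in GS and 442, 436 and 434 CPM in GS_diff1. Vim, the mesenchymal filament, gave 4982, 4788 and 4961 CPM in GS and 4844, 4688 and 4713 CPM in GS_diff1 (log2 fold change -0.048 ± 0.021), a call that was lost in 4 of the 6 leave-one-out fits and whose sign turned with library totals (0.013). Tcf21, a defining factor of resident cardiac fibroblasts with a mean of 18.5 CPM in RCF, was under 1 CPM in all GS and GS_diff1 libraries.

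The matrix genes moved both ways within each kind. Of 20 collagen genes 8 rose and 10 fell. Col11a1, a nucleator of fibres, gave 943, 988 and 942 CPM in GS and 2999, 3016 and 3154 CPM in GS_diff1 (log2 fold change 1.67 ± 0.027, edgeR adjusted p = 1.77e-29), Col5a1, its close partner, gave 1265, 1314 and 1217 CPM in GS and 2470.5, 2536 and 2657 CPM in GS_diff1, and Col1a1 rose by 1.43-fold. The basement membrane chains Col4a1 and Col4a2 fell by 1.61-fold and 1.89-fold, and Col3a1 fell by 1.33-fold. Col1a2 could not be read, since its libraries scattered over 1378, 1909.8 and 3453 CPM in GS and 2804, 2002 and 1272 CPM in GS_diff1. Of 31 matrix proteoglycans and glycoproteins 18 fell and 10 rose.

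Mgp, an inhibitor of calcification, gave 671, 639 and 679 CPM in GS and 46.6, 45.4 and 40.5 CPM in GS_diff1, a 14.99-fold fall (log2 fold change -3.91 ± 0.044, edgeR adjusted p = 1.05e-26), whereas its mean was 1981 CPM in GS_diff2. Lum, which spaces collagen fibrils, fell from 113, 117 and 118 to 15.9, 15.9 and 15.6 CPM, and Ccn5 (listed as Wisp2) from 1085, 1046 and 1092 to 223, 218 and 225 CPM. Eln, elastin, fell by 3.84-fold and Fn1, fibronectin, by 1.97-fold. Postn, the periostin of activated cardiac fibroblasts, went the other way, with 102, 95.1 and 100.4 CPM in GS and 704, 702 and 688 CPM in GS_diff1 (log2 fold change 2.82 ± 0.036, edgeR adjusted p = 8.84e-32), and Tnc, tenascin, gave 769, 794 and 757 CPM in GS and 2382, 2378 and 2367 CPM in GS_diff1. The values of each of these genes did not overlap between the groups.

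Of 26 tested matrix enzymes and inhibitors 16 fell and 7 rose. Mmp2, a gelatinase that cuts basement membrane collagen, gave 2241, 2195 and 2193 CPM in GS and 462, 466 and 455 CPM in GS_diff1 (log2 fold change -2.26 ± 0.025, edgeR adjusted p = 1.61e-33). Mmp14, which activates it, fell by 2.82-fold, its inhibitor Timp2 by 2.32-fold and the aggrecanase Adamts5 by 4.51-fold. Serpine2, a blocker of thrombin and urokinase, fell from 1341, 1279.5 and 1321 to 509, 505 and 515 CPM. The collagen cross-linkers Lox and Loxl2 rose, by 0.30 and 0.61 on the log2 scale, and Loxl1 fell, with a log2 fold change of -1.19.

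**Figure D3:**
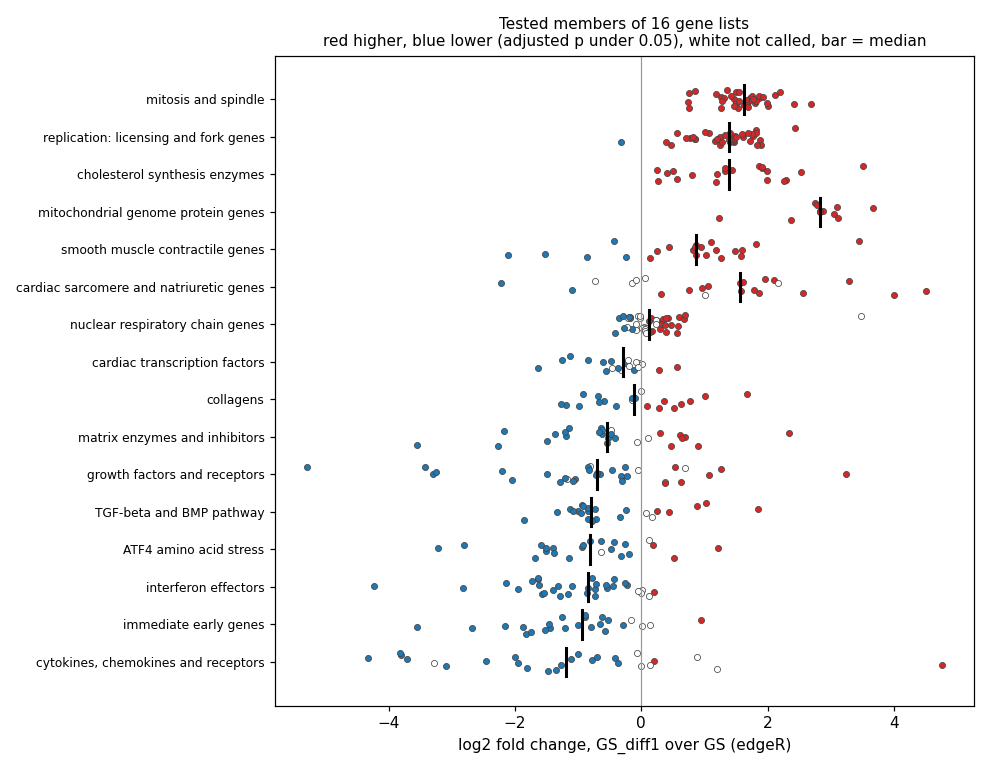
Log2 fold change of GS_diff1 over GS (horizontal axis) for each tested member of 16 of the 45 gene lists (rows), with called members in red (higher) or blue (lower), uncalled members in white and the list's median as a black bar. Mitosis, replication, cholesterol and mitochondrial genome members lie to the right, and interferon, immediate early and cytokine members mostly to the left.

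Interferon-responsive genes were lower in CMM. Of 32 tested effectors 27 fell and 1 rose, with a median log2 fold change of -0.85, and of 17 sensors and transcription factors 12 fell and 3 rose. The summed level of the effectors ran from 1057 to 1071 CPM in GS, from 579.7 to 585 CPM in GS_diff1, from 1033 to 1055 CPM in GS_diff2 and from 1421 to 1433 CPM in RCF, so GS_diff1 was the lowest group. Rsad2, an antiviral enzyme also called viperin, gave 13.3, 13.1 and 15.8 CPM in GS and 0.19, 1.31 and 0.754 CPM in GS_diff1 (log2 fold change -4.22 ± 0.39, edgeR adjusted p = 2.40e-06). Ifit3, which binds viral RNA with its family members, gave 11.3, 11.5 and 13.3 CPM in GS and 1.47, 2.77 and 0.811 CPM in GS_diff1, and Bst2, which tethers budding viruses, gave 10.7, 13.9 and 12.2 CPM in GS and 3.99, 3.88 and 3.88 CPM in GS_diff1. Oasl and Usp18, a nucleic acid sensor relative and a feedback protease, had log2 fold changes of -2.14 and -1.95. In each of these 5 the highest GS_diff1 library was under the lowest GS library.

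Among the upstream genes Irf7, the amplifying factor, fell from 29.8, 27.9 and 28.3 to 6.52, 11.2 and 10.1 CPM, and the receptor chain Ifnar1 from 113, 110.2 and 106 to 64.4, 64.1 and 69.96 CPM. Stat2 and Irf9, members of the interferon-activated complex, had log2 fold changes of -0.29 and -0.65. Socs1, an inhibitor of the receptor's kinases, rose from 4.18, 5.32 and 2.83 to 14.6, 15.1 and 15.4 CPM, and Irf3 and Tyk2 rose by 0.55 and 0.40 on the log2 scale. The core of the response element bound by the complex, read as GAAA, any 2 bases and GAAA again on either strand, was in 17 of 26 matched effector promoters (65.4%) and 3 of 11 promoters of the sensors (27.3%), against 3.92% of all. Those 3 sensor promoters belong to Ifih1, Irf7 and Socs1, of which Socs1 rose. The 200 bases before the start of 3 effectors that fell are printed with the element in capitals, in Rsad2 and Ifit3 as read on the other strand. It begins 147 bases before the start in Rsad2, 44 before it in Ifit3 and, as overlapping copies, 131 and 125 before it in Bst2.
Rsad2 (chr6:48788121-48788320, minus strand): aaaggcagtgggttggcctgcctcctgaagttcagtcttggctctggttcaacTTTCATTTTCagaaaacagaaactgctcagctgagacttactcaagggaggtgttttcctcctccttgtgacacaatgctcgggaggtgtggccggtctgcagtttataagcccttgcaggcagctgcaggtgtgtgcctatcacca
Ifit3 (chr1:241527126-241527325, plus strand): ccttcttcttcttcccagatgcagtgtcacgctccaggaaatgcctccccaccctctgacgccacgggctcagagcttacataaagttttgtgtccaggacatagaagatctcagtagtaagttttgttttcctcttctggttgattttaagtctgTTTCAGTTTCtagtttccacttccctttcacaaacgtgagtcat
Bst2 (chr16:18254968-18255167, minus strand): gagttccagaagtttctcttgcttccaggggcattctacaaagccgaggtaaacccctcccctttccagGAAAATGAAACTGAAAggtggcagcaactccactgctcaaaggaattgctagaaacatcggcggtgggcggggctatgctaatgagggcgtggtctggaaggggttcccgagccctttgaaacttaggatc

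The genes that respond first to growth factors and stress were lower as well. Of 24 tested immediate early genes 20 fell and 1 rose, with a median log2 fold change of -0.95, and of 14 ERK phosphatases and feedback inhibitors 11 fell and none rose. Egr1, a zinc finger factor induced within minutes by serum, gave 636, 608 and 649.6 CPM in GS and 103, 99.6 and 92.9 CPM in GS_diff1 (log2 fold change -2.68 ± 0.038, edgeR adjusted p = 8.68e-31), and its relative Egr2 fell by 11.7-fold. Atf3, a stress factor, gave 208, 203 and 204 CPM in GS and 43.7, 45.03 and 49.1 CPM in GS_diff1, Klf4 gave 536, 519.9 and 519.9 CPM in GS and 149, 138 and 144 CPM in GS_diff1, and Jun and Fos, the partners of AP-1, fell by 2.39-fold and 2.30-fold. Fosb was the member that rose, from 2.29, 2.49 and 3.22 to 4.95, 5.60 and 4.81 CPM. Dusp6, the ERK phosphatase, gave 52.8, 54.7 and 58.01 CPM in GS and 11.1, 10.3 and 11.1 CPM in GS_diff1 and 258, 245 and 254 CPM in GS_diff2, and Spry2 and Spry4, inhibitors of receptor signalling, fell by 3.30-fold and 3.36-fold. The CArG box was present in 4 of 15 matched immediate early promoters (26.7%), those of Egr1, Egr2, Klf6 and Zfp36, and the AP-1 site TGANTCA in 0 of 15, against 7.33% of all.

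Secreted signals fell more often than they rose. Of 26 tested cytokines, chemokines and their receptors 18 fell and 2 rose, with a median log2 fold change of -1.19, and of 33 growth factor genes 22 fell and 6 rose. Cxcl12, the chemokine that holds progenitor cells in tissues, gave 52.9, 54.6 and 53.4 CPM in GS and 3.28, 4.84 and 3.19 CPM in GS_diff1, against a mean of 654 CPM in RCF. Ccl20 and Cxcl3, attractants of lymphocytes and neutrophils, fell by 20.1-fold and 13.95-fold. Cxcl1, a neutrophil attractant, gave 254, 244 and 247 CPM in GS and 66.9, 60.5 and 64.2 CPM in GS_diff1, and Il6 gave 12.8, 11.6 and 12.6 CPM in GS and 1.14, 0.908 and 0.754 CPM in GS_diff1. The receptor Il1rl1 (chr9:47134034-47182170, plus strand, as deposited), which binds interleukin-33, had the largest rise by the rule: 3.72, 3.47 and 3.15 CPM in GS and 94.2, 94.7 and 92.5 CPM in GS_diff1, a 26.96-fold change (log2 fold change 4.75 ± 0.092, edgeR adjusted p = 2.14e-27). Its ligand Il33 fell slightly, from 40.8, 34.2 and 37.8 to 28.7, 28.8 and 29.9 CPM. Il1rl1 was nearly as high in GS_diff2, at a mean of 84.3 CPM.

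Among growth factors Fgf7, a stromal factor for epithelia, gave 25.7, 23.7 and 24.6 CPM in GS and 0.333, 0.655 and 0.927 CPM in GS_diff1, and Fgf10, its close relative, fell by 4.15-fold. Angpt1, which stabilises vessels, fell by 9.85-fold, Ereg, a ligand of the EGF receptor, by 9.50-fold and the binding protein Igfbp4 by 4.60-fold. Igf2, the fetal growth factor, rose from 1.47, 1.79 and 1.42 to 14.9, 14.6 and 14.9 CPM, below its mean of 91.3 CPM in GS_diff2. Vegfa gave 417, 418 and 412 CPM in GS and 163, 177 and 172 CPM in GS_diff1. Both vessel-directed ligands, Vegfa and Angpt1, were lower in the GS_diff1 libraries, with no overlap.

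In the Wnt pathway 11 of 23 tested genes fell and 3 rose, though DESeq2 called 5 higher. Sfrp2 (chr2:182723854-182731764, plus strand, as deposited), a secreted antagonist, gave 461, 444 and 466 CPM in GS and 11.5, 10.99 and 10.1 CPM in GS_diff1, a 41.8-fold fall (log2 fold change -5.39 ± 0.057, edgeR adjusted p = 1.61e-33), with a mean of 139.6 CPM in GS_diff2. Wnt5a, a ligand of the branch without beta-catenin, fell from 52.4, 56.3 and 51.4 to 16.6, 12.5 and 14.9 CPM, and Nkd2, a feedback inhibitor, rose from 33.4, 32.8 and 35.9 to 81.1, 75.4 and 83.1 CPM. Of 9 Notch genes 3 rose, Notch1 from 7.66, 6.83 and 6.57 to 18.3, 18.5 and 21.3 CPM, and 6 fell. In the TGF-beta and BMP list 17 of 24 fell and 5 rose. The ligands parted: Tgfb2 and Tgfb3 rose by 1.84-fold and 2.03-fold and Inhba, the activin subunit, by 3.59-fold, whereas Tgfb1 fell by 1.67-fold and Bmp4 by 2.20-fold. The BMP targets Id1, Id2 and Id3 fell by 1.80-fold, 3.62-fold and 1.93-fold, and the inhibitory Smad7 by 1.72-fold.

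All 11 tested protein genes of the mitochondrial genome rose, with a median log2 fold change of 2.83. Their summed level ran from 1835 to 1861 CPM in GS, from 11472 to 13181 CPM in GS_diff1, from 13851 to 14365 CPM in GS_diff2 and from 16002 to 16551 CPM in RCF. Mt-co1, a core subunit of cytochrome oxidase, gave 1045, 1035 and 1006 CPM in GS and 7494, 6891 and 6698 CPM in GS_diff1, and Mt-nd5, of complex I, gave 77.5, 84.6 and 78.9 CPM in GS and 747, 659 and 659 CPM in GS_diff1. Mt-nd4l, another complex I subunit, moved most, from 12.3, 13.7 and 13.7 to 183, 173 and 146 CPM. GS stood apart from the other 3 groups, and GS_diff1 lay nearer to RCF. The nuclear genes of the same chain moved little: of 46 tested, 20 rose and 8 fell (4 without GS replicate 3), with a median of 0.12, and their summed level ran from 4821 to 5110.5 CPM in GS and from 5294 to 5633 CPM in GS_diff1. The largest called nuclear steps were Cox7b and Sdhd, each at 0.68 on the log2 scale. Ndufa1 could not be read, with 0.046, 1.68 and 0.129 CPM in GS and 4.14, 0.151 and 16.1 CPM in GS_diff1. Of 16 tested genes of mitochondrial transcription and biogenesis 6 rose (10 with library totals) and 3 fell, with a median of 0.18. Among them Polg, the polymerase of mitochondrial DNA, gave 90.8, 98.6 and 85.7 CPM in GS and 215, 232 and 246 CPM in GS_diff1. The helicase Twnk (listed as Peo1) fell by 1.23-fold.

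Glycolysis rose modestly, with 14 of 24 tested genes up and 4 down and a median log2 fold change of 0.29. Hk2, which traps glucose, gave 99.9, 102 and 104 CPM in GS and 191, 191 and 197 CPM in GS_diff1, and Ldha, which makes lactate, gave 668, 652 and 671 CPM in GS and 1183, 1215 and 1219 CPM in GS_diff1. Hk1 and Pfkfb3 fell, with log2 fold changes of -0.70 and -0.86. Of 12 genes of the hypoxia response 7 fell and 2 rose. Epas1, which encodes HIF-2 alpha, gave 1141, 1114 and 1144 CPM in GS and 493, 471 and 471 CPM in GS_diff1, Adm, adrenomedullin, fell by 3.76-fold, and Car9, a surface carbonic anhydrase, rose from 28.5, 29.1 and 34.3 to 82.4, 86.2 and 84.1 CPM. Fatty acid uptake and oxidation fell in 13 of 23 genes and rose in 6. Lpl, the lipase of the vessel wall, fell by 3.89-fold and Angptl4, its inhibitor, by 3.30-fold.

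The 2 arms of the stress response went apart. Of 23 tested genes of the ATF4 amino acid response 18 fell and 3 rose, with a median log2 fold change of -0.82. Of 20 chaperone genes of the endoplasmic reticulum 14 rose and 5 fell, with a median of 0.36. Trib3, a target of ATF4 and CHOP, gave 328, 337 and 323 CPM in GS and 109, 103 and 116 CPM in GS_diff1, Slc7a5, the leucine carrier, gave 608, 608 and 600.1 CPM in GS and 259, 282 and 283 CPM in GS_diff1, and Stc2, a secreted stress protein, fell by 9.31-fold. Hspa5, the main chaperone, gave 908, 881 and 918 CPM in GS and 1778, 1754 and 1777 CPM in GS_diff1, Hsp90b1 rose by 2.26-fold and Calr by 1.98-fold. Herpud1, of the degradation branch, fell by 2.77-fold. Of 13 tested glucocorticoid-responsive genes 10 fell and none rose. Lcn2, an iron carrier, gave 195, 206 and 204 CPM in GS and 11.4, 11.5 and 10.8 CPM in GS_diff1 and a mean of 404 CPM in GS_diff2, and Mt2A, a metallothionein, fell by 13.1-fold.

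**Figure D4:**
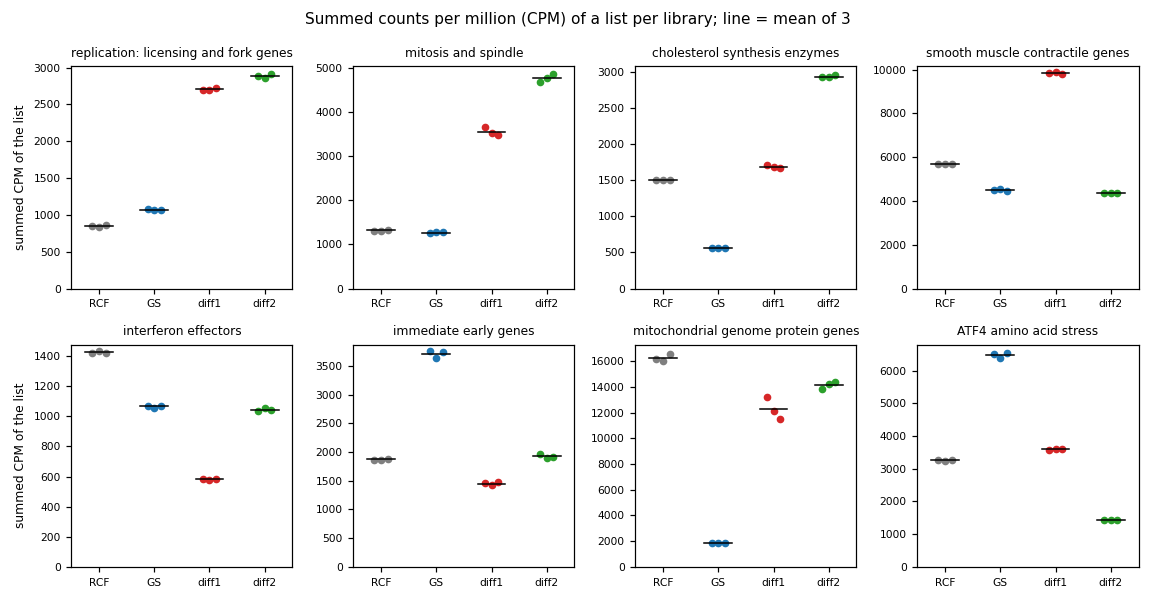
Summed CPM of 8 gene lists (vertical axis, from 0) in each library of RCF, GS, GS_diff1 (diff1) and GS_diff2 (diff2), with a dot per library and a line at the mean of 3. GS is the lowest group for cholesterol and mitochondrial genome genes and the highest for immediate early and ATF4 genes, and GS_diff1 is the highest for smooth muscle genes and the lowest for interferon effectors.

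Markers of other lineages gave a mixed picture. Epithelial markers rose in 8 of 15 cases and fell in 4, and their summed level ran from 879 to 903 CPM in GS, from 2511 to 2535 CPM in GS_diff1, from 837 to 865 CPM in GS_diff2 and from 6.42 to 8.88 CPM in RCF. The simple keratins carried the sum: Krt8 gave 205, 201 and 196 CPM in GS and 1157, 1151 and 1168 CPM in GS_diff1 (log2 fold change 2.53 ± 0.032, edgeR adjusted p = 6.85e-32) and Krt18, its filament partner, gave 165, 159 and 159 CPM in GS and 727, 729 and 723 CPM in GS_diff1. Cdh1, E-cadherin, gave 211, 202 and 219 CPM in GS and 324, 313 and 319 CPM in GS_diff1, against a mean of 0.181 CPM in RCF, and Cldn7 fell from 14.4, 12.8 and 16.2 to 3.66, 3.23 and 3.36 CPM. These epithelial genes were present in undifferentiated GS cells already and almost absent from the parental fibroblasts. The part of the epithelial markers in the other results was not tested.

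Hnf4a, a nuclear receptor of liver and gut, gave 1.15, 2.55 and 1.87 CPM in GS and 26.4, 26.4 and 25.4 CPM in GS_diff1, no read in RCF and a mean of 3.16 CPM in GS_diff2 (log2 fold change over GS_diff1 -3.03 ± 0.20, edgeR adjusted p = 4.93e-13). The endoderm and liver list that holds it moved both ways, with 3 of 10 tested rising (Hnf4a, Lhx1 and Foxa2) and 3 falling, 1 without GS replicate 1. The summed level of the list ran from 153 to 171 CPM in GS and from 209 to 218 CPM in GS_diff1. Lhx1, a factor of early mesendoderm and kidney, rose from 1.33, 1.45 and 2.58 to 17.1, 16.03 and 14.2 CPM, Foxa2 by 0.42 on the log2 scale, and Alb, the liver's albumin, was at 0 in all 6 libraries. Of 11 tested pluripotency genes 5 rose and 4 fell, 2 without GS replicate 2. Dnmt3b, a DNA methyltransferase of early embryos, gave 15.1, 13.2 and 11.5 CPM in GS and 42.04, 47.5 and 41.7 CPM in GS_diff1, Lin28a, an RNA-binding factor, gave 169, 164 and 176 CPM in GS and 254, 264 and 262 CPM in GS_diff1, Klf5 gave 569.5, 565 and 562 CPM in GS and 244, 232 and 258 CPM in GS_diff1, and Nanog was at 0 in all 12 libraries. Of 6 tested cartilage and bone genes 3 rose and 3 fell, Acan, aggrecan, from 18.8, 23.5 and 23.2 to 94.4, 96.2 and 103 CPM and Alpl, the bone phosphatase, from 36.7, 34.4 and 34.1 to 4.28, 5.85 and 5.62 CPM. Myh3, the embryonic myosin of skeletal muscle, rose from 5.37, 7.41 and 6.82 to 26.8, 26.9 and 26.02 CPM, 1 of 4 risers among 6 tested skeletal genes.

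Endothelial markers rose in 7 of 13 tested cases and fell in 3, but only 1 fell without GS replicate 1, GS replicate 2 or GS_diff1 replicate 2. The summed level ran from 1223 to 1261 CPM in GS and from 856 to 865 CPM in GS_diff1. Sox17, a factor of arteries and endoderm, made the sum fall, with 719.7, 695 and 715 CPM in GS and 334, 329 and 329 CPM in GS_diff1. Among the risers, Erg went from a mean of 1.52 CPM in GS to 6.07 CPM in GS_diff1. Tek went from a mean of 12.2 to 16.1 CPM and Eng from 72.3 to 89.2 CPM. The Tek call was lost without GS_diff1 replicate 2. Of the genes that define vessels, Emcn, Kdr and Cdh5 were at or near 0. Emcn had no read, Kdr reached at most 0.202 CPM and Cdh5 at most 0.463 CPM in the 6 libraries. Leukocyte markers summed to 25.1 to 29.3 CPM in GS and from 17.97 to 19.2 CPM in GS_diff1, most of it Cd14, with 14.8, 14.5 and 13.1 CPM in GS_diff1. Ptprc, the pan-leukocyte antigen, was at 0 in all 6. Of the 13 tested leukocyte markers 3 rose and 4 fell, of 8 mesothelial ones 1 rose and 3 fell, of 7 neural ones 1 rose and 2 fell, and of 3 adipocyte ones 1 rose and 1 fell. Many matched members of these lists, tested or not, stayed below 1 CPM in all 6 libraries. They were 15 of 19 leukocyte, 3 of 9 mesothelial, 7 of 14 neural and 6 of 8 adipocyte genes. Without GS replicate 1 there were 2 mesothelial risers, and without GS replicate 2 or 3 there were 2 neural risers.

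Of 17 tested imprinted genes 10 rose and 5 fell. The gene model of the microRNA Mir675 (chr1:215745981-215746064, minus strand, as deposited) gave 38.5, 37.4 and 38.6 CPM in GS and 549, 531 and 616 CPM in GS_diff1, a 14.8-fold rise (log2 fold change 3.89 ± 0.056, edgeR adjusted p = 1.23e-21), and no read in RCF. It lies inside the host transcript H19, for which no value is given here, so its reads may come from that longer RNA and the mature microRNA was not measured. In GS_diff2 it gave 68.1, 61.8 and 65.9 CPM, 8.66-fold below GS_diff1 (edgeR adjusted p = 1.42e-20). Both mature arms (RefSeq, GRCr8) are printed with the seed, bases 2 to 8, in capitals, since the arms share no seed and would pair with different targets.
rno-miR-675-5p (chr1:207161800-207161821, minus strand): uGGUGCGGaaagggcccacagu
rno-miR-675-3p (chr1:207161766-207161786, minus strand): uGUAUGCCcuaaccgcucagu

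Several of the largest changes fell outside these sets. Car3, a carbonic anhydrase of muscle and fat, gave 2.62, 2.83 and 2.06 CPM in GS and 31.7, 29.7 and 28.3 CPM in GS_diff1 and no read in any GS_diff2 library, at least 202-fold below GS_diff1 when 3 reads are allowed per library. Hesx1, a homeobox factor of the forebrain and pituitary, rose from 1.51, 0.984 and 2.06 to 17.4, 17.3 and 18.5 CPM, and Mlxipl, the glucose-sensing factor ChREBP, from 1.70, 1.504 and 1.61 to 18.6, 17.2 and 18.8 CPM. Rltpr, a regulator of actin capping, rose from 0.642, 0.694 and 1.22 to 10.7, 10.4 and 11.6 CPM.

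On the falling side Scin, an actin-severing protein, dropped from 18.9, 17.99 and 19.1 CPM to 0, 0.101 and 0 CPM, which is 0, 2 and 0 reads. Akr1cl, an aldo-keto reductase, fell from 50.02, 46.2 and 46.1 to 0.523, 0.958 and 0.869 CPM, Cyp4b1, a cytochrome P450, from 22.1, 23.1 and 23.8 to 0.38, 0.756 and 1.22 CPM, and Htr2a, a serotonin receptor, from 33.3, 31.5 and 33.8 to 0.951, 1.26 and 1.80 CPM. Pga5, a pepsinogen, met the rule on a wide scatter of 0.413, 19.4 and 11.6 CPM in GS against 0.238, 0.403 and 0.348 CPM in GS_diff1, and its call was lost when any library other than GS replicate 1 was left out. The groups did not overlap in any of the 20, which the rule required.

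GS_diff2 holds the same cells in CMM with EGM2 added. Of the 14399 genes 9167 differed between GS_diff2 and GS_diff1 (63.7%), 4628 higher in GS_diff2 (32.1%) and 4539 lower (31.5%). At 2-fold or more 1538 were higher (10.7%) and 1197 lower (8.31%). Cholesterol synthesis was higher still in GS_diff2 for 18 of 20 enzymes and lower for none. Mitotic genes were higher for 24 of 37 and lower for 5. Smooth muscle genes were lower for 17 of 22 and higher for 4, interferon effectors higher for 26 of 32 and lower for 4, and ATF4 genes lower for 21 of 23 and higher for 1. Mitochondrial genome genes differed in 3 of 11 cases, all higher. The 2 comparisons share the GS_diff1 libraries, so a value that happened to be extreme there enters both.

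Against the parental fibroblasts GS_diff1 differed in 10858 genes (75.4%), with 5476 higher (38.0%) and 5382 lower (37.4%). The mitotic genes were higher for all 37, the sarcomere list was higher for 15 of 23 and lower for 6, and interferon effectors were lower for 27 of 32 and higher for 4. The summed level of the sarcomere list was nevertheless lower in GS_diff1, 1761 to 1809 CPM against 1855 to 1890 CPM in RCF. Of the 11 mitochondrial genome genes 4 were higher and 5 lower. This comparison also shares the GS_diff1 libraries, and it adds the viral factors and immortalization to the medium, which cannot be told apart in it.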

How the data were processed

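The deposited table holds raw read counts per gene for 12 libraries, made by the authors. Per the labels' protocols, RNA was purified with RNeasy and libraries were made with the Ovation RNA-seq v2 kit. Per the submitters' processing notes, Bowtie 0.12.2 was used, with the builds Rnor_6.0 and mm8 named and no role given to either. For the counting program and its annotation and strand setting, nothing is given in the sources used here, so reads of overlapping or antisense genes, close paralogs and multiply mapping copies cannot be separated.

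Counts were analysed in R 4.3.3 with edgeR 4.0.16 (TMM factors, filterByExpr, robust quasi-likelihood fit over all 12 libraries in 4 groups, residual df 8), and p-values were adjusted by Benjamini and Hochberg over the 14399 tested genes at 0.05. The fit was tested on simulated data. Alternatives used library totals, DESeq2 size factors, DESeq2 1.42.0, voom from limma 3.58.1, no filter, a stricter filter of 5 CPM in 3 libraries, only both groups compared, a replicate block and leaving out each library. Replicates of a group differed by more than sampling noise (chi-square per degree of freedom 5.17 to 7.87), so none was treated as repeated sequencing of another library. The measure cannot tell separate cultures from separate preparations of the same cells.

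The members and the 45 gene lists were chosen with earlier results of these data known, so a list's count is a description and no independent support. Of 995 list memberships 971 matched a gene of the table, 16 of them through another name, and 847 were tested. Genes named are Sall4 and Gata4, the 10 largest rises and falls (called, no overlap, at least 10 CPM), list members by role with up to 4 of the largest called changes at 5 CPM or more, and the 5 largest rises and falls that also differ by 2-fold in GS_diff2. Some genes the rule names are not reported here. Motifs were searched in RefSeq promoters of GRCr8, and figures were drawn with matplotlib 3.10.9 in Python 3.11.15.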

Additional observations from a re-analysis of the deposited data

How the results depend on the processing

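The count of called genes was 9256 and stayed between 8233 and 9320 over the alternatives, and leaving out each library gave 8715 to 8850. Same-numbered GS and GS_diff1 libraries showed no shared deviation from their group means (correlations of -0.01, -0.045 and -0.0087). This cannot tell whether they were derived or handled together. The fit with the replicate block called 9135 genes, 9099 of them shared. The block moved no list count by over 1.5 times. Library totals in place of TMM gave 5100 higher and 4165 lower and a median log2 fold change of 0.054, turned Vim to 0.013 and called 10 mitochondrial biogenesis genes higher, 2 pericyte and 2 mesothelial genes higher, and 2 pluripotency genes and 1 endothelial gene lower. The stricter filter tests 11361 genes, and with fewer tested called 1699 at 2-fold or more, 756 of them higher. Under it the counts were 3 calcium handling genes higher, 4 endothelial higher, 2 skeletal higher, 2 leukocyte lower, 1 mesothelial lower, 1 endoderm lower, 1 leukocyte higher and 1 sarcomere lower. No filter gave 3 neural genes higher, voom 2 pericyte genes higher and DESeq2 5 Wnt genes higher. With only the 2 groups compared, 1 leukocyte gene and 1 sarcomere gene were lower, and 2 pericyte and 4 cytokine genes were higher. Leaving out single libraries gave 1 to 3 endoderm genes lower, 1 to 3 endothelial genes lower, and other shifts of list counts that stand beside those counts. The cause of these shifts was not tested where the filter does not explain it. Of the named genes, Sall4, Gata6, Tf, Vim, Pga5, Prdm16, Tek, Ebp, Mvk, Tbx3, Gins2, Myh11 and Tcf21 lost their call under at least 1 alternative.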

Other observations

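The deposited table assigns transcription factors to families, and the families below were chosen after their values were seen. Of 985 tested factors 228 were higher in GS_diff1 and 336 lower, beside 32.0% and 32.3% of all genes. The basic leucine zipper factors, the family of Jun, Fos, Atf3 and Cebpb, had 29 of 45 lower and 8 higher. The basic helix-loop-helix factors had 31 of 60 lower and 11 higher, and the nuclear receptors grouped with the thyroid hormone receptor had 12 of 16 lower and 1 higher. In the other direction, 7 of 10 E2F factors, 13 of 27 MYB factors and 19 of 41 HMG box factors were higher, and 1, 4 and 9 of them were lower. Homeobox factors were mixed, with 18 of 78 higher and 29 lower.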
